A study of Mus musculus with 62 samples.

Results

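The 9 genes that mark GABAergic interneurons (Gad1, Gad2, Slc32a1, Pvalb, Sst, Npy, Vip, Crh and Crhbp) were measured in stressed and unstressed mice, in tissue from the nucleus accumbens (NAc) and from the prefrontal cortex (PFC). They were chosen by gene symbol, through the Ensembl identifier of each row of the count table, and all 9 were found among the 11121 genes counted. Tissue came from male wild-type C57BL/6j mice of 15 weeks. The mice had either undergone multimodal chronic restraint stress (mCRS), a daily restraint paired with changing light, noise, shaking or a predator odor, or had been left unstressed (CTR). RNA was profiled by BRB-seq, in which each sample receives a barcode during oligo-dT reverse transcription, samples are pooled, and reads are taken near the 3′ end of transcripts. There were 15 PFC CTR, 15 PFC mCRS, 16 NAc CTR and 16 NAc mCRS libraries, 62 in all. Libraries of a region came from separate mice.

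Gad1 and Gad2 encode the glutamate decarboxylases GAD67 and GAD65, which make GABA, and Slc32a1 encodes the transporter that loads GABA into synaptic vesicles, so the 3 genes are shared by nearly all GABAergic neurons. Pvalb, Sst and Vip mark the main separate classes of cortical interneurons, Npy is made by a subset of Sst cells and by neurogliaform cells, Crh is a stress peptide that part of the cortical interneurons also express, and Crhbp encodes a secreted protein that binds and sequesters CRH. In the cortex GABAergic cells are a minority among excitatory neurons, whereas the projection neurons that make up most of the NAc are themselves GABAergic. In bulk tissue, fewer cells of a type and less RNA per cell cannot be told apart.

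Library totals lay between 945286 and 4857359 counts. The median total of PFC CTR was 2398072 counts and that of PFC mCRS 1966931, against 2884276.5 for NAc CTR and 2615250.5 for NAc mCRS. The share of listed genes with at least 1 count was 87.1% ± 4.42 (SD, n = 15) in PFC CTR and 82.3% ± 6.22 (n = 15) in PFC mCRS, against 90.2% ± 7.13 (n = 16) and 88.5% ± 7.43 (n = 16) in the NAc groups. The summed level of 14 cortical excitatory neuron markers lay between 2024 and 3639 CPM, that is counts scaled to the library size, in the PFC libraries and between 386 and 1643 CPM in the NAc libraries. The summed level of 16 striatal projection neuron markers lay between 944 and 2491 CPM in the PFC and between 4081 and 11907 CPM in the NAc libraries other than NAc CTR 7, which was at 973 CPM. NAc CTR 7 also had the highest sum of 6 counted hypothalamic markers, 3295 CPM against at most 1336 CPM in the other libraries. On the striatal markers it went against its label, while its cortical excitatory sum, 386 CPM, was the lowest of all libraries. The edgeR tests, member levels, Gad1 to Gad2 ratio and correlations between members below that use this library were also computed without it. None of these markers was at 0 throughout a group.

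The genes lie on 7 chromosomes in GRCm38. Gad1 spans chromosome 2, positions 70553072 to 70602014 (+ strand), and shares part of that span with the antisense gene Gad1os. Gad2 lies at chromosome 2, 22622205 to 22693874 (+), with 2 microRNA genes inside it, and Slc32a1 at chromosome 2, 158610767 to 158615748 (+), overlapped by the antisense gene Gm14205. Pvalb lies at chromosome 15, 78191114 to 78206400 (−), Sst at chromosome 16, 23889573 to 23890958 (−), Npy at chromosome 6, 49822710 to 49829507 (+), Vip at chromosome 10, 5639218 to 5647617 (+), Crh at chromosome 3, 19693401 to 19695396 (−) and Crhbp at chromosome 13, 95431371 to 95444924 (−). All 9 are protein-coding, and the last 6 overlap no other annotated gene. The sources used here do not say whether strand was used in counting, so reads of Gad1 and Slc32a1 cannot be told apart from those of their antisense partners.

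Sequence just upstream of the transcription start is shown for the 4 members that differed between regions in both treatments and have a motif match there, and for Sst, the member that differed least between the regions. Each stretch holds the 120 bases before the RefSeq start (GRCm38.p6), written 5′ to 3′ on the gene's own strand. Capitals mark matches, on either strand, to the cAMP response element TGACGTCA, its core TGACG, the TATA box TATAAA or the GC box GGGCGG. The full element contains the core.
Gad1 (chr2:70562009-70562128, + strand): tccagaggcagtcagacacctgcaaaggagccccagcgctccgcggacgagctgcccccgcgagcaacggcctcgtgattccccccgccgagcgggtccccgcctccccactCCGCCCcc
Gad2 (chr2:22622207-22622326, + strand): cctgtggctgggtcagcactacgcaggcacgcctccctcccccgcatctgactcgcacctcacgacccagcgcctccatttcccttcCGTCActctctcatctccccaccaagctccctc
Sst (chr16:23890845-23890964, - strand): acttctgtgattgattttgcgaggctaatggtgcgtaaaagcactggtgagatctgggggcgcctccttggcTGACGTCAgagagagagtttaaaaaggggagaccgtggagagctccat
Npy (chr6:49822590-49822709, + strand): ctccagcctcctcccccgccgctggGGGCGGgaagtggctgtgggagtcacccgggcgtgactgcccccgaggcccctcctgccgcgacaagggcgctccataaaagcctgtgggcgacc
Vip (chr10:5639098-5639217, + strand): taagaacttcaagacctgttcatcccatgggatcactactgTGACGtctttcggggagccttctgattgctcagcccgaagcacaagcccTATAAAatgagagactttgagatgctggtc

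Promoter windows, 250 bases before to 50 bases after a start, were found for 8 of the 9 members. The Sst window held the full cAMP response element, starting 48 bases before the start, and it was the only one of the 9 member windows to do so (Pvalb has 2 windows). Of the 32851 mouse promoter windows in the same table, 1.79% held that element. The core occurred in the windows of Gad2, Vip, Crhbp and Sst, against 20.8% of all windows. TATAAA occurred in Vip, where the nearest match began 30 bases before the start, and in Gad1 and Crhbp, against 13.6% of all windows. GGGCGG occurred in Gad1 and Npy, against 35.7% of all windows. The RefSeq start of Gad1 lies inside the Ensembl span of the gene. A match says only that these letters are present.

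**Figure D1:**
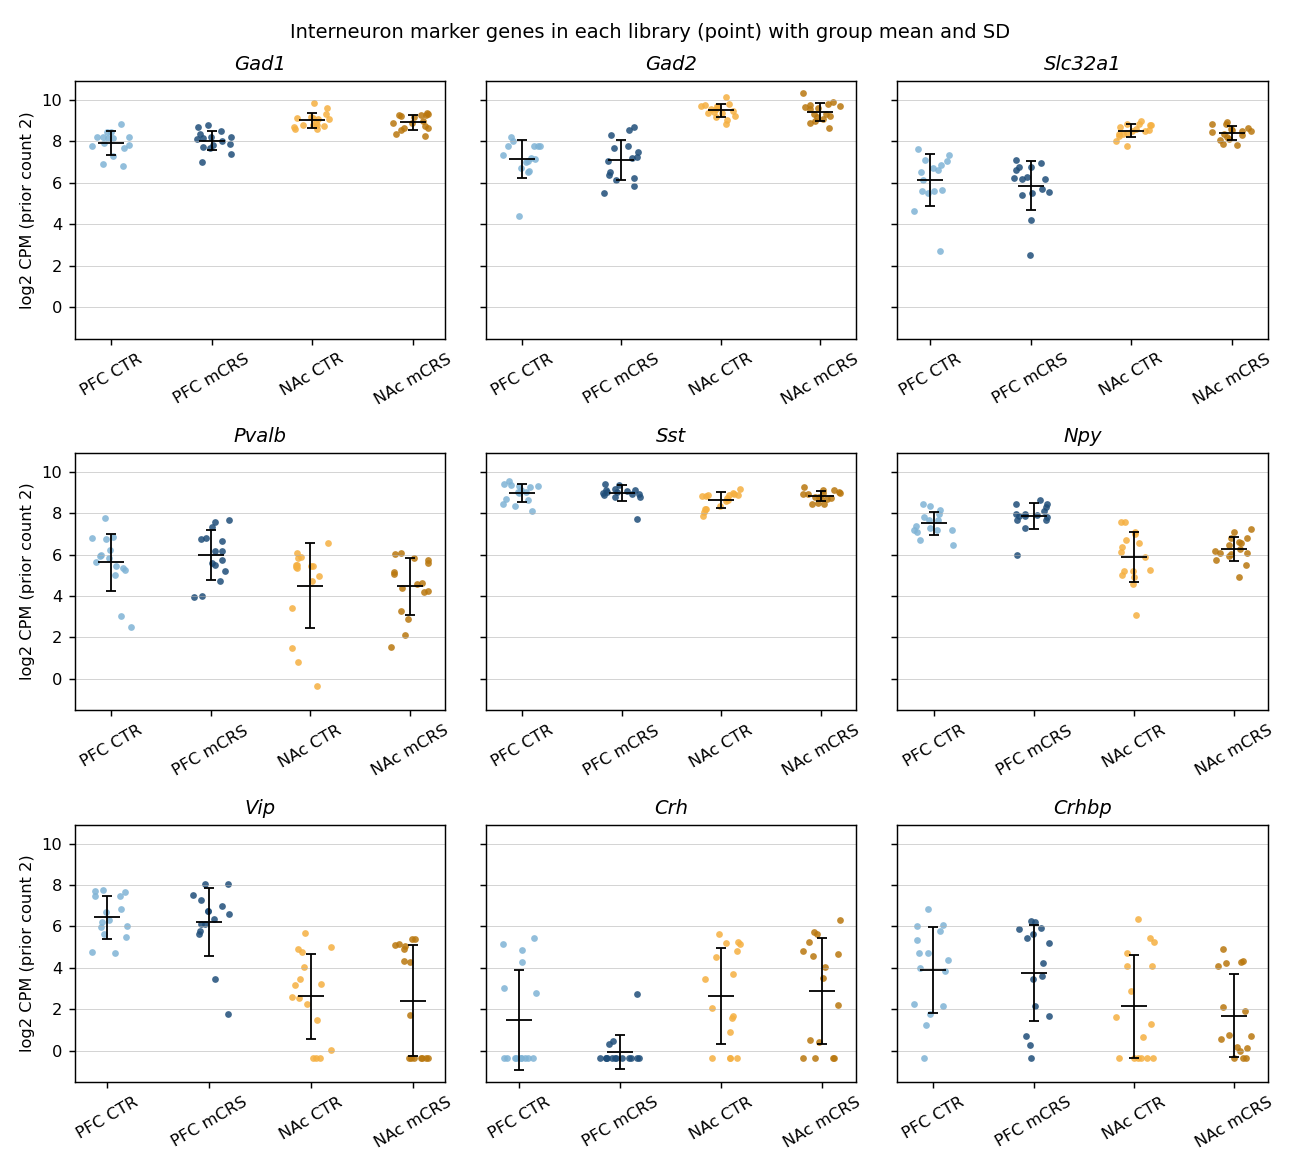
Level of each member in each library, as log2 CPM with a prior count of 2 (y axis), by region and treatment (x axis). Points are libraries, horizontal marks the group mean and bars the SD. Gad1, Gad2 and Slc32a1 sit higher in the NAc groups, and Npy and Vip in the PFC groups. Vip, Crh and Crhbp have libraries at a count of 0, and Pvalb has 1, in NAc CTR.

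The first comparison asked whether the GABA-making machinery and the subtype genes differed between the regions in unstressed mice. Gad1, Gad2 and Slc32a1 were lower in the PFC than in the NAc, and Npy and Vip were higher, so that 5 of the 9 members passed the test (edgeR quasi-likelihood test, Benjamini-Hochberg adjusted p below 0.05 over 9932 genes). Across all genes tested, 6.32% passed. Those higher in the PFC made up 4.23% of all genes, against 2 of the 9 members, and those lower in the PFC made up 2.09%, against 3 of the 9 members. In the mCRS mice, 6 of the 8 members tested passed, 3 in each direction, against 6.31% of 9452 genes in either direction, 4.23% higher in the PFC and 2.07% lower. The labels do not say which PFC and NAc libraries came from the same mouse, and the test treated them as independent.

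Gad2, the decarboxylase concentrated at nerve terminals, was measured at a lowest of 20.2 CPM, a median of 146 CPM and a highest of 298 CPM in PFC CTR. In NAc CTR the same values were 460.2, 735 and 1135 CPM. Every PFC CTR library lay below every NAc CTR library. The log2 fold change, PFC minus NAc, was -2.18 ± 0.199 (SE; n = 15 and 16; adjusted p = 1.68e-12, edgeR), a 4.54-fold lower level. In mCRS mice Gad2 ran from 45.4 through a median of 145 to 407 CPM in the PFC and from 399 through 696 to 1303 CPM in the NAc. Here the ranges touched, PFC mCRS 2 lying above the lowest NAc library, and the log2 fold change was -2.08 ± 0.233 (adjusted p = 7.24e-10, edgeR).

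Slc32a1, the vesicular GABA transporter, ran from 5.83 CPM through a median of 91.5 CPM to 197 CPM in PFC CTR and from 218 through 369 to 511 CPM in NAc CTR. In mCRS mice it ran from 5.03 through 71.0 to 135 CPM in the PFC and from 227 through 355 to 483 CPM in the NAc. The PFC and NAc ranges did not overlap in either treatment. The log2 fold change was -2.08 ± 0.253 in CTR (adjusted p = 1.05e-08) and -2.28 ± 0.253 in mCRS mice (adjusted p = 5.4e-10, both edgeR). Within the PFC the gene was far more uneven than in the NAc, with an SD of log2 CPM of 1.25 in PFC CTR and 1.18 in PFC mCRS against 0.32 and 0.33 in NAc CTR and NAc mCRS. The lowest PFC CTR library, number 12, held 15 counts of Slc32a1 and was also the lowest for Gad2, with 52 counts, while its Gad1 and Sst counts were 404 and 1277.

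Gad1, which supplies most of the GABA in the cell body, differed less between the regions than Gad2. It ran from 112 through a median of 285 to 457 CPM in PFC CTR and from 385 through 507 to 917 CPM in NAc CTR. In mCRS mice it ran from 127 through 275 to 449 CPM in the PFC and from 305 through 486 to 663 CPM in the NAc. The ranges of the regions overlapped in both treatments, yet no PFC library lay above the NAc median of its treatment. PFC minus NAc, the log2 fold change was -1.05 ± 0.166 in CTR (adjusted p = 5.91e-06) and -0.85 ± 0.164 in mCRS mice (adjusted p = 0.000177, both edgeR).

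The balance of both decarboxylase transcripts within a library is free of library size. In PFC CTR the log2 ratio of Gad1 to Gad2 counts had a lowest value of -0.52, a median of 0.71 and a highest value of 2.96, and Gad1 exceeded Gad2 in 13 of 15 libraries. In PFC mCRS it ran from -1.32 through a median of 1.02 to 2.69, again with Gad1 ahead in 13 of 15 libraries. In the NAc the ratio was mostly below 0, from -1.19 through -0.57 to 0.75 in CTR and from -1.08 through -0.49 to 0.38 in mCRS mice, with Gad1 ahead in 3 of 16 libraries of each treatment. Without NAc CTR 7 the NAc CTR median was still -0.57, with Gad1 ahead in 3 of 15 libraries. The means were 0.78 ± 0.852 (SD, n = 15), 0.94 ± 1.10 (n = 15), -0.48 ± 0.523 (n = 16) and -0.51 ± 0.421 (n = 16) in the same order. The treatments overlapped throughout in both regions. Counts were not calibrated between the 2 genes, so the sign of the ratio does not rank their transcript numbers. Only its shift between regions can be read.

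**Figure D2:**
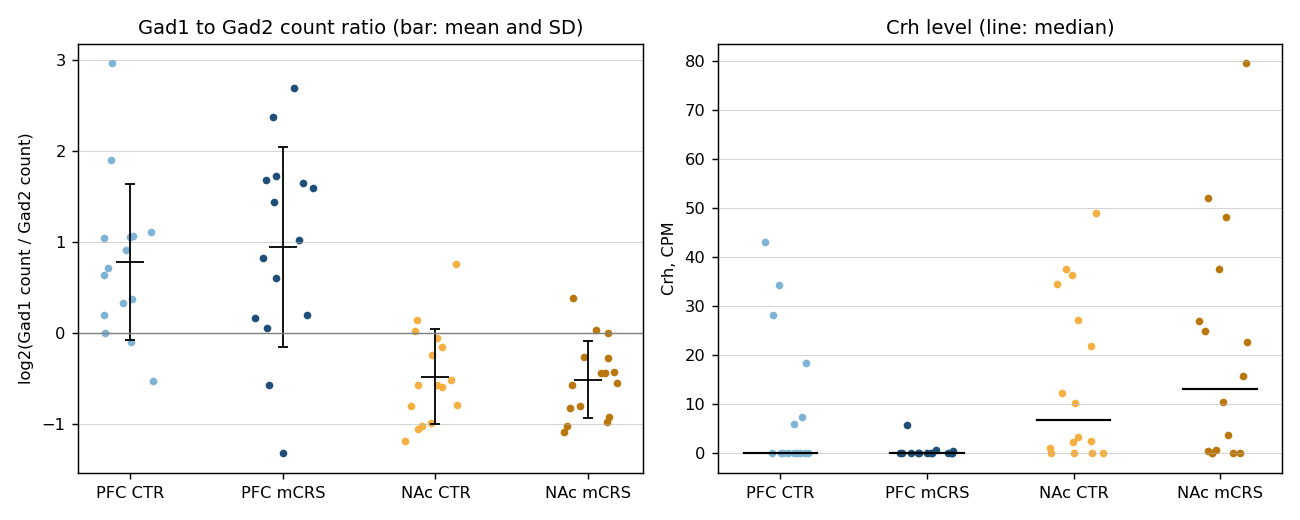
Left, log2 ratio of Gad1 to Gad2 counts per library (y axis) by group, with the group mean and SD. Right, Crh level in CPM per library by group, with the group median as a line; Gad1 exceeds Gad2 in 13 of 15 libraries of each PFC group and in 3 of 16 of each NAc group, and Crh reaches 43.2 CPM in PFC CTR but 5.87 CPM in PFC mCRS.

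Among the peptides, Vip, made by interneurons that mainly inhibit other interneurons, showed the largest regional fold change of the members tested with the filter on low counts, in both treatments. It ran from 25.3 through a median of 78.8 to 216 CPM in PFC CTR and from 0 through 6.73 to 51.2 CPM in NAc CTR. In mCRS mice it ran from 2.69 through 97.6 to 268 CPM in the PFC and from 0 through 10.49 to 41.03 CPM in the NAc. All PFC CTR libraries exceeded the NAc CTR median, although the ranges overlapped, and 3 NAc CTR and 7 NAc mCRS libraries held no Vip count. The log2 fold change, PFC minus NAc, was 3.13 ± 0.578 in CTR (adjusted p = 9.85e-05) and 2.79 ± 0.682 in mCRS mice (adjusted p = 0.00400, both edgeR), or 8.74-fold and 6.93-fold.

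Npy, a peptide that dampens excitatory transmission, was also higher in the PFC. It ran from 87.4 through a median of 167 to 348 CPM in PFC CTR and from 7.84 through 63.5 to 190.3 CPM in NAc CTR. In mCRS mice the values were 61.6, 237 and 403 CPM in the PFC and 29.8, 73.2 and 152 CPM in the NAc. All 15 PFC CTR libraries and 14 of 15 PFC mCRS libraries lay above the NAc median of their treatment, with overlapping ranges. The PFC minus NAc log2 fold change was 1.31 ± 0.299 in CTR (adjusted p = 0.00192) and 1.61 ± 0.235 in mCRS mice (adjusted p = 8.41e-07, both edgeR).

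Sst, the peptide of dendrite-targeting interneurons, was nearly level across the regions. It ran from 272 through a median of 526 to 744 CPM in PFC CTR, from 211 through 511 to 673 CPM in PFC mCRS, from 233 through 442 to 583 CPM in NAc CTR and from 344 through 461 to 622 CPM in NAc mCRS. All 4 ranges overlapped. The log2 fold change, PFC minus NAc, was 0.35 in CTR (95% interval 0.05 to 0.65, adjusted p = 0.196, edgeR) and 0.15 in mCRS mice (-0.13 to 0.42, adjusted p = 0.757), so neither passed the test. Both intervals ended below those of Npy, 0.71 to 1.91 and 1.14 to 2.08. NAc CTR 7, the library low in striatal markers, was the lowest of its group for both Sst, at 233 CPM, and Slc32a1, at 218 CPM. Without it the NAc CTR minima were 269 CPM for Sst and 259.6 CPM for Slc32a1, the medians of Crh and Vip were 10.35 and 8.29 CPM, and 5 of the 9 members still passed in CTR mice.

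Pvalb, a calcium-binding protein of fast-spiking interneurons, was noisier. It ran from 4.88 through a median of 56.4 to 216 CPM in PFC CTR and from 0 through 41.8 to 94.6 CPM in NAc CTR. In mCRS mice it ran from 14.5 through 70.9 to 202 CPM in the PFC and from 2.09 through 23.8 to 66.9 CPM in the NAc, and 13 of 15 PFC libraries lay above the NAc median. Its log2 fold change was 0.85 ± 0.498 in CTR (adjusted p = 0.469, edgeR) and 1.48 ± 0.475 in mCRS mice (adjusted p = 0.0457, edgeR). DESeq2 kept the latter call, at 1.43 ± 0.423 (adjusted p = 0.0127). In edgeR it was lost with DESeq2-style size factors (adjusted p = 0.0627) and with a replicate block (0.0984). It was lost with the percentage of detected genes as covariate (0.248). The call was lost too without the 4 PFC mCRS and 3 NAc mCRS libraries under 80% of genes detected (0.295). It was also lost in 17 of 31 fits that left out a single library, 7 times a PFC library (numbers 1, 2, 3, 9, 11, 13 and 14) and 10 times an NAc library (1, 4, 5, 6, 7, 10, 11, 13, 15 and 16), with adjusted p between 0.0277 and 0.113 over the 31. The difference between the mCRS and CTR values was 0.64 ± 0.683 (unadjusted p = 0.348 in the edgeR interaction test).

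Crh and Crhbp were the sparsest members, with 2189 and 2997 counts over the 62 libraries. Crhbp ran from 0 through a median of 20.2 to 112 CPM in PFC CTR, from 0 through 18.01 to 75.7 CPM in PFC mCRS, from 0 through 2.004 to 81.4 CPM in NAc CTR and from 0 through 0.886 to 29.2 CPM in NAc mCRS. The log2 fold change of Crhbp, PFC minus NAc, was 1.05 ± 0.870 in CTR (adjusted p = 0.697, edgeR) and 2.10 ± 0.916 in mCRS mice (adjusted p = 0.223), so it passed in neither. Crh in CTR mice ran from 0 through a median of 0 to 43.2 CPM in the PFC and from 0 through 6.84 to 49.1 CPM in the NAc, a log2 fold change of -0.71 ± 1.04 (adjusted p = 0.887, edgeR). In mCRS mice Crh fell under the filter on low counts and was not tested. Without that filter its log2 fold change there was -5.40 ± 1.30 (adjusted p = 0.00344, edgeR), and in DESeq2 it was -5.59 ± 1.15 (adjusted p = 5.56e-05), from 9 counts over 15 PFC libraries against 968 counts over 16 NAc libraries.

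**Figure D3:**
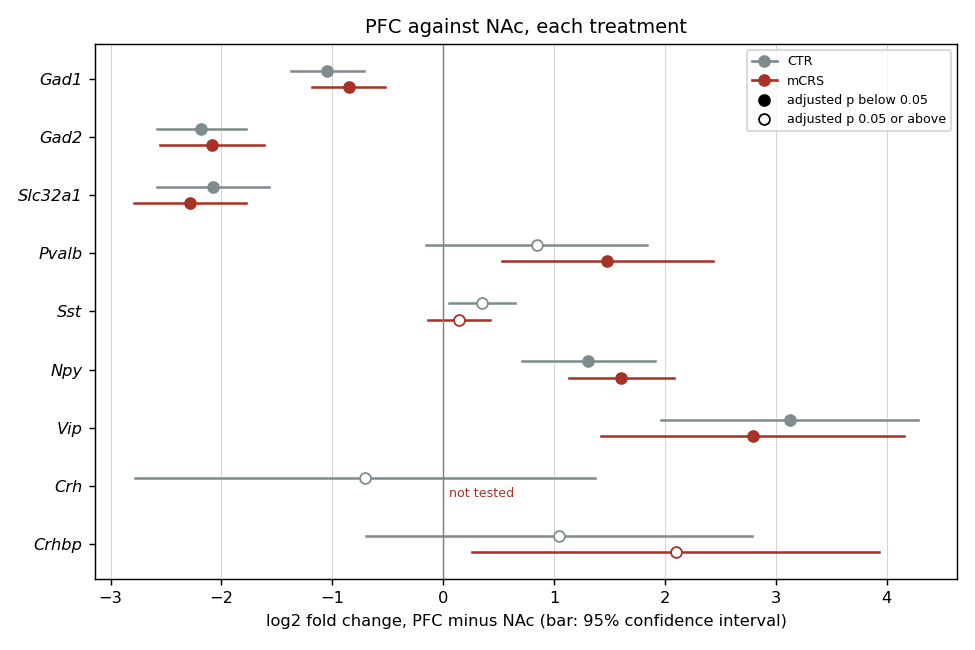
Log2 fold change of each member, PFC minus NAc (x axis), in CTR and mCRS mice, with its 95% confidence interval as a bar. Filled points have an adjusted p below 0.05: Gad1, Gad2 and Slc32a1 lie left of 0 and Npy and Vip right of it in both treatments, Pvalb is filled in mCRS mice, and the Sst intervals are narrow and near 0.

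In the wider GABA pathway most genes that passed were lower in the PFC. Of 13 genes for GABA synthesis, transport and breakdown, which include Gad1, Gad2 and Slc32a1, 12 were tested in CTR mice, and 7 were lower and 1 higher in the PFC. The median log2 fold change of the list was -0.89, against -0.02 over all genes tested. Abat, the transaminase that degrades GABA, changed by -1.29 ± 0.190 (adjusted p = 1.03e-06, edgeR). Slc6a11, a GABA reuptake transporter of astrocytes, and Slc38a1, a glutamine transporter, were also among those lower in the PFC. In mCRS mice 5 of 13 were lower and 1 higher, with a list median of -0.85 against -0.03 over all genes. Over all genes tested, 4.23% passed higher and 2.09% lower in the PFC in CTR mice, and 4.23% and 2.07% in mCRS mice. These shares, and the medians over all genes, also apply to the lists and markers that follow.

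Of 20 interneuron transcription factors, 15 were tested in CTR mice, and 3 were higher and 1 lower in the PFC, with a median of -0.37. Nr2f1, a nuclear receptor of cortical patterning, was higher by 1.70 ± 0.369 (adjusted p = 0.00107), Etv1 by 1.56 ± 0.375 (adjusted p = 0.00342) and Satb1, needed for Sst interneurons, by 1.69 ± 0.412 (adjusted p = 0.00400, all edgeR). In mCRS mice none of 11 tested passed in edgeR, with 5 at an unadjusted p below 0.05. DESeq2, run without the low-count filter of edgeR, called 5 of the 19 counted, against 903 of 11121 genes. Nr2f2 stood there at -2.24 ± 0.820 (adjusted p = 0.106, edgeR).

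Of 28 other interneuron subtype genes, 23 were tested in CTR mice, and 4 were higher and 1 lower in the PFC, with a median of -0.32. Cck, a peptide of interneurons that cortical excitatory neurons also transcribe, was higher by 4.23 ± 0.224 (adjusted p = 4.24e-22), Lamp5, which marks neurogliaform cells, by 1.28 ± 0.217 (adjusted p = 2.14e-05) and the cannabinoid receptor gene Cnr1 by 1.30 ± 0.240 (adjusted p = 9.69e-05, all edgeR). The gene lower in the PFC was Nos1. In mCRS mice 4 of 21 were higher and 1 lower, with Cck at 3.24 ± 0.269 (adjusted p = 3.41e-14), Lamp5 at 1.88 ± 0.212 (adjusted p = 8.54e-10) and Slc24a2 at 0.80 ± 0.169 (adjusted p = 0.000662, all edgeR).

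Peptide processing genes, which serve every peptide among the members, were tested in full. In CTR mice 5 of 11 were higher and 2 lower in the PFC, with a median of 0.50, and in mCRS mice 4 were higher and 2 lower, with a median of 0.58. The prohormone convertase gene Pcsk2 was higher by 1.02 ± 0.171 in CTR mice (adjusted p = 1.66e-05), the granin gene Chgb by 0.95 ± 0.161 (adjusted p = 2.17e-05), and Scg2 was at -1.46 ± 0.195 (adjusted p = 9.6e-08, all edgeR). Of 17 genes for receptors and binding partners of the peptides, 10 were counted. Of these, 8 were tested in CTR and 3 in mCRS mice, and none passed in edgeR, with 1 and 2 at an unadjusted p below 0.05. The nearest to the threshold was Adcyap1, the PACAP peptide gene, at 2.41 ± 0.787 in mCRS mice (adjusted p = 0.0530, edgeR). DESeq2, run without the low-count filter of edgeR, called 2 of the 10 counted in mCRS mice, against 903 of 11121 genes.

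Markers of other cells moved with the same comparison. Of 16 striatal projection neuron markers, 14 were lower in the PFC in CTR mice and 16 in mCRS mice, with medians of -2.47 and -2.31. Of the cortical excitatory markers, 9 of 13 tested in CTR and 8 of 11 tested in mCRS mice were higher in the PFC, with medians of 3.43 and 2.33. Their part in the differences of Gad1, Gad2, Slc32a1, Npy and Vip was not tested. Nor was it tested for Nr2f1, Etv1, Satb1, Cck, Lamp5, Cnr1 and the other listed genes. Of the counted hypothalamic markers, 5 of 5 tested in CTR and 4 of 4 in mCRS mice were lower in the PFC, and their part in the Crh values was not tested.

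The second comparison asked whether stress altered these genes in the PFC. None of the 8 members tested passed (edgeR quasi-likelihood test), against 0% of 8916 genes, and none had an unadjusted p below 0.05, against 3.5% of genes. DESeq2 called 0 of 11121 unfiltered genes, with 576 at an unadjusted p below 0.05 against 312 of the 8916 in edgeR. Crh, which the filter in edgeR removed, was among those 576. The median log2 fold change, mCRS minus CTR, was 0.05 over the members and -0.01 over all genes tested.

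The GABA synthesis and transport genes had overlapping ranges in the PFC. Gad1 was at 0.11 ± 0.195 (log2 fold change with SE, n = 15/group), with a 95% interval of -0.28 to 0.50. Gad2 was at 0.07 ± 0.294 (-0.52 to 0.66) and Slc32a1 at -0.29 ± 0.390 (-1.08 to 0.49). For Slc32a1, 5 of 15 mCRS libraries lay above the CTR median. The interval of Gad1 thus covers folds from 0.823 to 1.41, and that of Slc32a1 from 0.475 to 1.404.

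Of the subtype genes in the PFC, Npy came nearest to a difference, at 0.38 ± 0.216 (interval -0.05 to 0.82, unadjusted p = 0.0832, adjusted p = 0.9997, edgeR), with 13 of 15 mCRS libraries above the CTR median. The unadjusted p was as low as 0.0299 with a single library left out, at an adjusted p of at least 0.999. Sst was the most tightly bounded, at -0.01 ± 0.155, with an interval of -0.32 to 0.30 or folds from 0.801 to 1.23. Pvalb was at 0.31 ± 0.426 (-0.54 to 1.16) and Vip at 0.02 ± 0.386 (-0.75 to 0.80). Crhbp was at -0.01 ± 0.753 (-1.52 to 1.501). The Pvalb value turned to -0.09 with the percentage of detected genes as covariate and to -0.02 without the low-detection libraries, of which 4 were PFC mCRS and none PFC CTR. For Gad2 and Vip the mean log2 CPM was slightly lower in mCRS (7.10 against 7.16, and 6.22 against 6.45) while the fitted change was slightly above 0, both well inside the error.

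Crh was below the filter in the PFC, so its counts are given by library. In PFC CTR, 6 of 15 libraries held counts, 132 in library 3, 71 in library 9, 55 in library 2, 52 in library 5, 14 in library 10 and 11 in library 14. In PFC mCRS, 3 of 15 held counts, 7 in library 3 and 1 each in libraries 1 and 6. The groups thus totalled 335 and 9 counts. Most libraries of both groups were at 0, and the number of libraries with a count did not separate the groups (Fisher's exact test, two-sided, p = 0.427). With the filter removed, the log2 fold change was -4.20 ± 1.42 (unadjusted p = 0.00434, adjusted p = 0.542, edgeR), in DESeq2 it was -4.27 ± 1.69 (p = 0.0118, adjusted p = 0.671), and in a fit of all 62 libraries -4.27 ± 1.26 (p = 0.00105, adjusted p = 0.244).

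In the NAc, the third comparison, none of the 8 members tested passed (edgeR), against 0.00986% of 10141 genes, a single gene, Ttr. None had an unadjusted p below 0.05, against 2.04% of genes, and DESeq2 called 0 of 11121 unfiltered genes, with 393 at an unadjusted p below 0.05 against 207 of the 10141 in edgeR. The median log2 fold change was 0.02 over the members and -0.01 over all genes.

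The synthesis and transport genes were tightly bounded in the NAc. Gad1 was at -0.09 ± 0.135 (interval -0.36 to 0.18), Gad2 at -0.03 ± 0.132 (-0.29 to 0.24) and Slc32a1 at -0.10 ± 0.136 (-0.37 to 0.18; n = 16/group). The Gad2 interval corresponds to folds from 0.816 to 1.18. Sst was at 0.19 ± 0.130 (-0.07 to 0.45, unadjusted p = 0.153, edgeR) and Npy at 0.07 ± 0.328 (-0.58 to 0.73). Sst mCRS libraries lay above the CTR median in 8 of 16 cases and Npy libraries in 12 of 16.

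The sparse members of the NAc could not be bounded closely. Pvalb was at -0.33 ± 0.550 (-1.43 to 0.77), Vip at 0.34 ± 0.928 (-1.51 to 2.20) and Crh at 0.45 ± 0.877 (-1.31 to 2.20). Vip counts were present in 13 of 16 CTR and 9 of 16 mCRS libraries (Fisher's exact test, two-sided, p = 0.252), and its mean log2 CPM, 2.63 against 2.42, had the opposite sign to the fit. Crh counts were present in 12 of 16 libraries of each group, 877 and 968 in total. Crhbp was under the filter, with counts in 10 of 16 CTR and 13 of 16 mCRS libraries (p = 0.433) and totals of 678 and 318 counts.

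**Figure D4:**
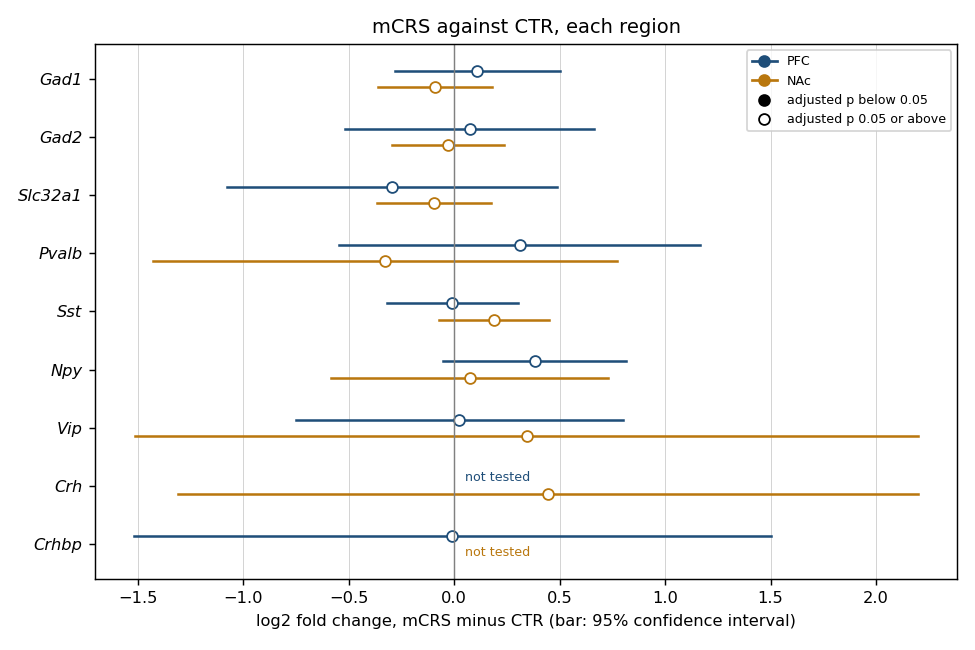
Log2 fold change of each member, mCRS minus CTR (x axis), in the PFC and NAc, with its 95% confidence interval as a bar. No point is filled, since no adjusted p was below 0.05, and the intervals are narrowest for Sst, Gad1, Gad2 and Slc32a1 in the NAc.

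The pathway lists did not pass under stress in either region. Of 12 GABA synthesis, transport and breakdown genes tested in the PFC none passed in edgeR and none had an unadjusted p below 0.05, with a list median of 0.10. In the NAc none of 13 passed and 1 had an unadjusted p below 0.05, Slc38a1 at -0.42 ± 0.178 (unadjusted p = 0.0226), with a list median of -0.09. Of the interneuron transcription factors, none of 9 passed in the PFC (median -0.39; 1 at an unadjusted p below 0.05, Etv1 at -0.85 ± 0.345, p = 0.0169) and none of 16 in the NAc (median -0.10; 0 at an unadjusted p below 0.05). Of the other subtype genes, none of 21 passed in the PFC (median 0.09) and none of 23 in the NAc (median 0.04), where 3 had an unadjusted p below 0.05 in edgeR. These were Cck at 1.07 ± 0.341 (p = 0.00267), Nos1 at -0.90 ± 0.327 (p = 0.00818) and Cnr1 at 0.63 ± 0.237 (p = 0.00996), each with an adjusted p of 0.99995. Peptide processing genes had medians of 0.02 in the PFC and 0.03 in the NAc, receptors and binding partners 0.04 and 0.24, and in both lists and regions none passed or had an unadjusted p below 0.05 in edgeR, and DESeq2 called none.

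Markers of other cells were given the same test. The 14 cortical excitatory markers had a median of -0.31 in the PFC, with 2 of 14 above 0 against 4397 of all 8916 genes. None of these markers passed the threshold and 1 had an unadjusted p below 0.05 in edgeR. Their summed level had a median of 3168 CPM in PFC CTR and 2351 CPM in PFC mCRS. Their part in the PFC values of the members was not tested. In the NAc the 16 striatal markers had a median of -0.03. Of the cortical excitatory markers, 7 were tested in the NAc and 6 of them were above 0, against 4997 of all 10141 genes. These 7 had a median of 0.09, with none past the threshold. Slc30a3 alone had an unadjusted p below 0.05 in edgeR, at 2.05 ± 0.918 (p = 0.0290). Nrn1 was at 0.98 ± 0.551 (p = 0.0812). Their part in the NAc values of Cck and Cnr1 was not tested. The single gene called there, Ttr, is a choroid plexus marker, and the 2 counted choroid plexus markers summed to 21591 CPM in NAc mCRS 10 against at most 320 CPM in every other NAc library.

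The fourth comparison tested whether the stress effect differed between the regions. None of the 9 members passed (edgeR interaction test), against 0.00907% of 11025 genes, and Crh was the single member with an unadjusted p below 0.05, against 3.09% of genes. DESeq2 called none of the members. For Crh the PFC effect minus the NAc effect was -4.72 ± 1.60 (unadjusted p = 0.00394, adjusted p = 0.99997). Crh had been under the filter in the PFC stress test. It held 335 counts in PFC CTR, 39.4% of them in library 3, and 9 in PFC mCRS. Its NAc stress effect was 0.45 ± 0.877, so the difference rests mainly on these sparse PFC counts. With a replicate block the unadjusted p of the Crh difference was 0.123 (edgeR). Of the 14 cortical excitatory markers, 7 had an unadjusted p below 0.05 in the same test and none passed, with a median of -0.47. Slc30a3 was at -2.44 ± 0.837 (p = 0.00439), Neurod1 at 3.65 ± 1.44 (p = 0.0128) and Neurod2 at -2.27 ± 0.907 (p = 0.0141, all edgeR). Their part in the member differences was not tested. The remaining 8 members had differences between -0.33 and 1.04, with unadjusted p from 0.297 for Sst, at -0.21 ± 0.199, to 0.749 for Gad2, at 0.10 ± 0.309.

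The order of the group medians was the same for Gad1, Gad2 and Slc32a1, with NAc CTR highest, then NAc mCRS, then PFC CTR, then PFC mCRS. For these genes no stress comparison within a region passed the test, and both regional comparisons did. For Npy and Vip the order was PFC mCRS, PFC CTR, NAc mCRS and NAc CTR, again with the regional comparisons alone passing. For Pvalb it was PFC mCRS, PFC CTR, NAc CTR and NAc mCRS. For Sst, at PFC CTR, PFC mCRS, NAc mCRS and NAc CTR, no comparison passed.

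No pair of members varied together past the threshold within a region. After removal of the treatment means, 36 pairs of members were correlated in each region, 72 in all (30 PFC and 32 NAc libraries). None reached an adjusted p below 0.05 for Pearson's r or Spearman's rho (two-sided permutation tests, 100000 resamples), and 6 had an unadjusted p below 0.05 for r. The r ran from -0.29 to 0.41 with a median of -0.03. In the PFC the highest was between Gad2 and Slc32a1, with r = 0.41 (permutation p = 0.0257, adjusted 0.544) and rho = 0.31 (p = 0.0970, adjusted 0.776), and r was 0.26 without the 2 libraries farthest from the Gad2 median. In the NAc the highest was between Slc32a1 and Sst, with r = 0.41 (permutation p = 0.0182, adjusted 0.544) and rho = 0.41 (p = 0.0202, adjusted 0.501), and r was 0.28 without the 2 farthest libraries. Without NAc CTR 7 that r was 0.27, and the highest NAc value was 0.39, between Slc32a1 and Vip. Leaving out the 2 farthest libraries raised r in 33 pairs and lowered it in 39, over a range of -0.37 to 0.46. It raised r from 0.24 to 0.44 between Gad1 and Gad2 in the PFC and from 0.32 to 0.46 between Gad2 and Slc32a1 in the NAc. Npy and Sst, which share cells in the cortex, had r = 0.12 in the PFC, or 0.34 without the 2 farthest libraries, and -0.09 in the NAc.

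**Figure D5:**
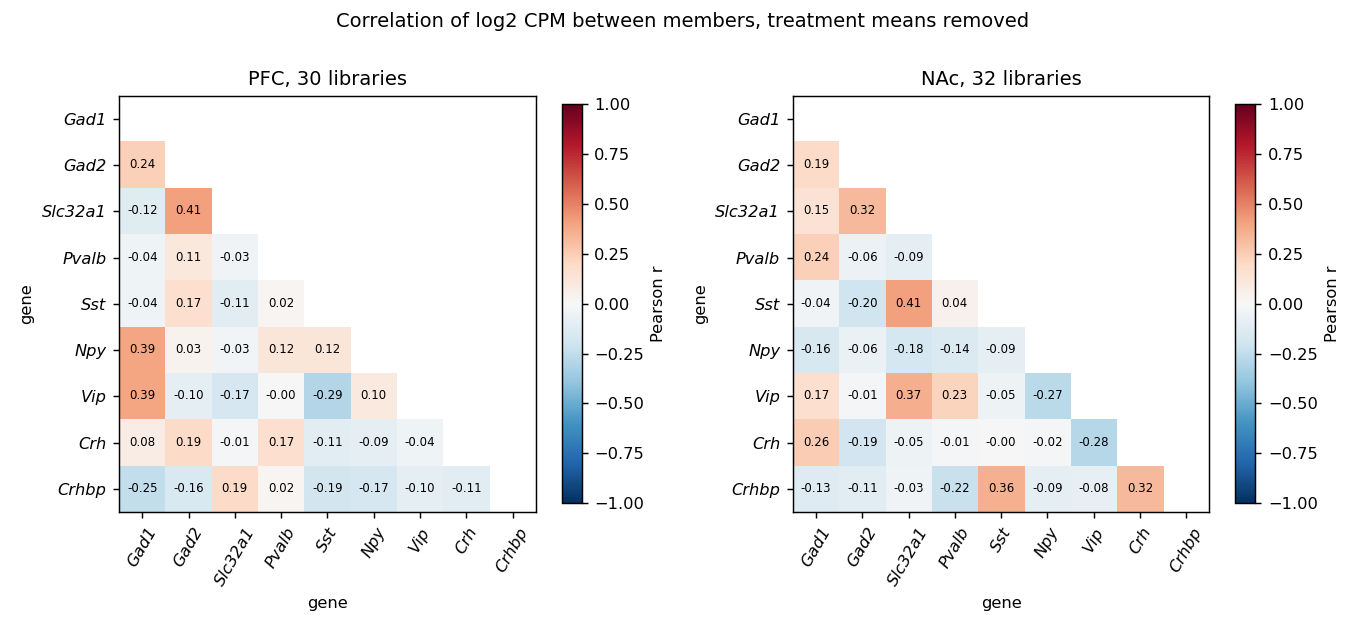
Pearson r of log2 CPM between each pair of members across the 30 PFC libraries (left) and 32 NAc libraries (right), with treatment means removed; the color scale runs from -1 to 1. Values lie between -0.29 and 0.41, and no pair passed after adjustment over the 72 pairs.

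As a description, the genes whose within-group variation was most like that of each member over the 62 libraries were listed from 11024 candidates. For Gad2 they were Six3, a transcription factor of striatal neurons (Pearson r = 0.52), Ubqln2 (0.51) and Vat1 (0.50). For Gad1 they were Oplah (0.53), Rangap1 (0.49) and Dgkg (0.47), and for Slc32a1 the translation initiation factor gene Eif3d (0.61), Ptpn11 (0.58) and Svbp (0.57). For Pvalb they included Hspa4 (0.52) and Daam1 (0.51), for Sst they were Ddrgk1 (0.51), Prom1 (0.50) and Nat14 (0.49), and for Npy Chchd3 (0.48), the pseudogene Ftl1-ps1 (0.48) and Trem2 (0.44). For Vip they were Med31 (0.50), Me2 (0.49) and Supt4a (0.47), for Crh Thada (0.51), Abi3bp (0.47) and Garnl3 (0.45), and for Crhbp Gyg (0.50), Eif4e2 (0.48) and Bcs1l (0.48). No member was among the genes most like another member. Each r was the highest of many, and the libraries behind it differ in depth.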

How the data were processed

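Gene counts were deposited by the authors as a raw count table of 62 libraries. Per the paper's methods, reads were aligned with STAR to GRCm38/mm10 and uniquely mapped reads were counted with HTSeq (version 0.9.1 in the submitters' processing notes); collapsing of reads by molecular identifier is not stated, so the counts are reads, and their number limits the precision of sparse genes. Identifiers were matched to symbols for 11120 of 11121 genes. Groups came from the sample titles. Counts were filtered (filterByExpr), normalized by TMM and tested with edgeR 4.0.16 (R 4.3.3) quasi-likelihood fits of the groups compared, with Benjamini-Hochberg adjustment over all genes tested and a threshold of 0.05. Levels are CPM after TMM, or log2 CPM with a prior count of 2. For edgeR, the SE was the absolute log2 fold change divided by the square root of its F statistic. The 95% intervals were built from that SE with the t distribution. Such an SE is approximate for sparse genes and for changes near 0. DESeq2 1.42.0 was an alternative. Promoters came from RefSeq (GRCm38.p6). The model code was tested on simulated counts. All members, up to 3 genes per list by p, and 3 genes most like each member were named; a few genes that these rules select are not reported here. The members and gene lists were chosen with earlier results of these data known. No same-numbered pair of libraries had a correlation of deviations above 0.1, which cannot decide whether replicate numbers pair the libraries.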

Additional observations from a re-analysis of the deposited data

How the results depend on the processing

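The number of members called kept within 1.5 times of its reported value in all 45 alternative fits and all 124 fits with a library left out. Leaving out each library in turn kept 5 members called between regions in CTR mice, 5 or 6 in mCRS mice (added after seeing the data), and 0 called under stress in either region; it was not run for the difference between regions. Counts called in the other lists moved by over 1.5 times in 67 of 1612 leave-one-out values and 25 of 585 others, and 4 of 72 correlations moved by 0.1 or more with library totals removed. With a replicate block the counts of members called were 0 in the PFC, 0 in the NAc, 5 between regions in CTR mice, 5 in mCRS mice and 0 for the difference, so the block cost the Pvalb call alone. Same-numbered libraries correlated between -0.03 and 0.05. No pair known to share a mouse was available for comparison, so these values cannot decide whether the numbers pair libraries. DESeq2 and the fit without a filter each called 7 members between regions in mCRS mice, Crh included. DESeq2 called 903 genes there against 596 in edgeR. In the PFC, 0 genes were called under stress as reported, 1 without the filter, 1 with a replicate block and 5 with all 62 libraries in the fit. In the NAc the reported count of 1 became 0 with DESeq2, the block, the detection covariate or the run covariate (runs of the sample list), and 2 without the filter or with all 62 libraries. For the difference between regions 1 gene became 0 under the stricter filter (at least 10 counts in 50% of libraries), the block, or without the libraries under 80% of genes detected.

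Some stress values changed sign without passing the threshold, and the cause was not tested. They were near 0 except Pvalb in the PFC (0.31) and Vip in the NAc (0.34). In the PFC the stress log2 fold change of Gad2 became -0.015 with a replicate block. Pvalb became -0.090 with the detection covariate and -0.020 without low-detection libraries. Sst became 0.0095 with DESeq2, 0.0097 with RLE normalization and 0.013 with the block. Vip became -0.063 with the block and -0.20 with the detection covariate. Crhbp became 0.0058 with DESeq2 or RLE, 0.0017 under the stricter filter and 0.091 without low-detection libraries. In the NAc Gad2 became 0.027 without low-detection libraries, and Vip became -0.40 with the block. With a library left out, the PFC values ran from -0.073 to 0.16 for Gad2, -0.060 to 0.048 for Sst, -0.14 to 0.14 for Vip and -0.19 to 0.32 for Crhbp, and the NAc values from -0.11 to 0.023 for Gad2 and -0.0084 to 0.23 for Npy. The fits without low-detection libraries and without NAc CTR 7 were chosen after seeing the data.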

Other observations

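Glial and vascular markers were measured beside the members. Of 9 oligodendrocyte markers, 5 in CTR and 6 in mCRS mice passed lower in the PFC than in the NAc, against 2.09% and 2.07% of all genes tested (edgeR). The list had median log2 fold changes of -0.81 and -0.85. Cnp, Mbp, Mobp and Mag were among those that passed in both treatments. Their summed level had medians of 3519 CPM in PFC CTR and 7014 CPM in NAc CTR. Of 8 astrocyte markers, Aldoc alone passed, lower in the PFC in both treatments, with list medians of -0.28 and -0.42. None of 8 microglia markers passed in either treatment, with 1 and 0 at an unadjusted p below 0.05 in edgeR, nor did any of the endothelial markers, 5 tested in CTR and 4 in mCRS mice, with 0 and 1 at an unadjusted p below 0.05.

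Under stress none of these 4 lists had a gene called in either region (edgeR, adjusted over all genes, and DESeq2). In the NAc 5 of 5 tested endothelial markers were below 0, while 4997 of all 10141 genes tested were above 0. The list had a median of -0.55, against -0.01 over all genes, and 1 marker at an unadjusted p below 0.05 in edgeR.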
